A study of Mus musculus with 36 samples.

Results

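The response of bone marrow adipocyte preparations to a high-fat diet (HFD, 60% of calories from fat) was measured in 6-month-old male C57BL/6J mice of wild-type genotype, against mice of the same strain, sex and age on standard chow. By their titles, 3 HFD arrays and 3 chow arrays belong to this comparison, 6 of the 36 arrays in the table, and all 23410 of its 35556 probe sets that carry a gene symbol were compared. Affymetrix Mouse Gene 1.0 ST arrays were used, and their values are log2 intensities summarized per probe set. Marrow was flushed from femurs and tibias, red cells were lysed, and the cells that floated after centrifugation were taken as adipocytes. Each array holds RNA pooled from several of the 6 to 10 animals of its group. P-values therefore measure the spread between pools and not between mice. That spread is a shared estimate over 30 arrays of both depots, and not that of these 6 arrays alone. Further groups, also of male wild-type C57BL/6J mice with 3 arrays each, serve for comparison: marrow cells after HFD and after chow at 14 months, and epididymal adipocytes, from the fat pad beside the testis, after HFD and after chow at 6 months. Epididymal cells at 14 months, after HFD and after chow, enter only through the estimate of the spread. Marrow and epididymal cells of 6-month-old male leptin-deficient ob/ob mice on chow enter through that estimate too, and 1 marrow ob/ob array is named below.

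Bone marrow adipocytes store fat between the cells that form blood, and flotation separates them from those cells by density. Megakaryocytes, the large marrow cells that shed platelets, carry abundant transcripts of platelet adhesion receptors and granule proteins, and platelets keep a share of those transcripts. Patrolling monocytes, which survey the vessel wall, express the fractalkine receptor and a set of myeloid inhibitory and Fc receptors. Kruppel-like factors are a family of transcription factors. Immediate early genes are switched on quickly after stimulation, and many but not all of them encode transcription factors.

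The preparations carried both adipocyte and blood cell transcripts. The 8 adipocyte markers with a probe set of their own had mean values between 4.44 and 9.24 in HFD arrays, against 5.25 and 8.91 in chow arrays, and leptin (Lep) was the lowest of them in both groups. Adiponectin (Adipoq) measured 8.56 ± 0.15 in HFD arrays and 8.24 ± 0.79 in chow arrays (mean ± SD, n = 3 each). Its chow arrays 01 to 03 measured 9.14, 7.93 and 7.64. The 9 neutrophil markers lay higher, between 11.77 and 13.44 in HFD arrays and between 10.87 and 13.47 in chow arrays, with no marker called. A set of 8 arrays also stood apart from the other 28 in 19 probe sets without a gene symbol, each with a gap of at least 1 log2 between the array groups, and it holds the 3 HFD arrays, chow 01, the 3 epididymal 6-month HFD arrays and marrow ob/ob array 03. Neither the labels nor the methods name this set. Chow 01 correlated with the HFD arrays at 0.9803 to 0.9846 over all 35556 probe sets, named or not, above its correlations of 0.9628 with chow 02 and 0.9596 with chow 03. Since chow 02 and 03 lie outside the set, diet and set cannot be told apart in the difference from these 2 arrays. For called genes whose main difference is printed, the difference from chow 01 is given where it is under 1 log2 or moves the value by over 1.5 times. For genes that were not called it is given for some only. "With the set term" marks a fit in which the set has a coefficient of its own, estimated from the marrow chow and ob/ob groups.

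In these cells 163 probe sets rose and 150 fell after HFD. These are 0.696% and 0.641% of the 23410 tested, 1.34% in all, called with limma at an adjusted p below 0.05 (Benjamini-Hochberg) and a change of at least 2-fold, in group means fitted to 30 arrays. Of the rises 157 kept their sign against chow 01 alone, and 55 were at least 1 log2 above it. Among the falls 138 kept their sign and 60 were at least 1 log2 below it. Chow 01 is 1 of the 3 arrays in the chow mean that picked these probe sets. Agreement in sign was therefore partly set by the choice and is no separate support. In 116 rises and 105 falls the 3 HFD arrays did not overlap the 3 chow arrays, a separation that 15.1% of all probe sets showed, 6.16% with HFD higher and 8.98% with HFD lower. Where a called gene with 1 symbol did overlap, chow 01 was the array inside or beyond the HFD range in 22 rises and 30 falls, chow 02 in 11 rises and 6 falls, and chow 03 in none. Left-out arrays mattered most on the chow side, with 877 probe sets (3.75%) called without chow 01 and 57 without chow 03. Together 58 probe sets, 0.248%, were called in the same direction in the main comparison, with the set term and against chow 01 alone, 14 of them rises (0.0598%) and 44 falls (0.188%).

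**Figure D1:**
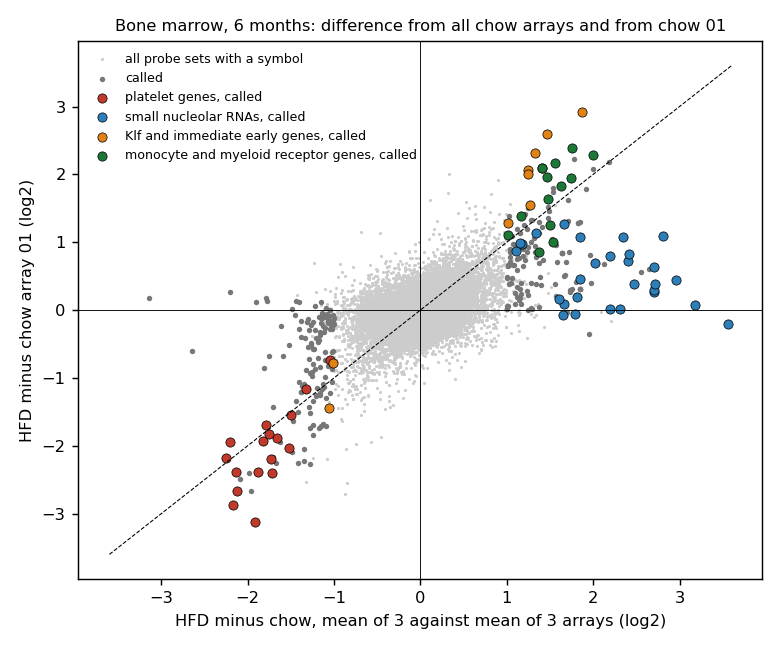
Each point is 1 of the 23410 probe sets, with HFD minus the mean of the 3 chow arrays on the horizontal axis and HFD minus chow 01 on the vertical axis, both in log2; called points are dark grey, and called members of 4 gene groups are coloured. Platelet genes (red) lie along the diagonal in the lower left, whereas small nucleolar RNAs (blue) reach 3.56 on the horizontal axis and none exceeds 1.27 on the vertical axis.

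Megakaryocyte and platelet genes were the group with the most falls. Of 33 measured members 17 fell and 0 rose, against 0.592% of all 19938 measured genes that fell, and the median difference was -1.32 over the list and -0.03 over all genes. Against chow 01 the list's median was -1.70, and 16 members were called lower, whereas 0.346% of all genes were. In bulk RNA, fewer cells of a type and less RNA per cell cannot be told apart. Averaged over the 33 members, the level was 7.70, 7.68 and 7.99 in HFD arrays 01 to 03, against 9.22, 8.30 and 9.16 in chow arrays 01 to 03.

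The promoters of the called platelet genes were read for the letters that GATA1, the principal transcription factor of megakaryocytes, recognizes. The search took GATA with A or T directly before it and A or G directly after it, on both strands, in the 250 bases before each gene's start, and 12 of the 17 genes matched a promoter in RefSeq (GRCm38.p6). These letters occurred in 5 of the 12 promoters (41.7%), and in 8718 of 32851 promoters of the whole table (26.5%). The 3 promoters below belong to the gene with the most matches and to a pair of genes with 1 match each that lay furthest below chow 01. They are printed 5′ to 3′ on the strand of the gene: Gp5 at chr16:30310782-30311031 on the minus strand, F2rl2 at chr13:95696670-95696919 on the plus strand and Mmrn1 at chr6:60944067-60944316 on the plus strand.
Gp5: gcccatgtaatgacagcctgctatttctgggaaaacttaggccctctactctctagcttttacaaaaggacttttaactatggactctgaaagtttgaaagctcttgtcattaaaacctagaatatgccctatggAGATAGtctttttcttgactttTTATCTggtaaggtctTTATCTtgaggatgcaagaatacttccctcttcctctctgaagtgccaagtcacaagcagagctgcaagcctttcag
F2rl2: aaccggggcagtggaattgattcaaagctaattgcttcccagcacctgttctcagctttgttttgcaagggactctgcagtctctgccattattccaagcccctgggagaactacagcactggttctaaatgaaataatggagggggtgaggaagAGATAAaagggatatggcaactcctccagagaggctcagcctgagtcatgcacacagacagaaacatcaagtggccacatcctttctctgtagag
Mmrn1: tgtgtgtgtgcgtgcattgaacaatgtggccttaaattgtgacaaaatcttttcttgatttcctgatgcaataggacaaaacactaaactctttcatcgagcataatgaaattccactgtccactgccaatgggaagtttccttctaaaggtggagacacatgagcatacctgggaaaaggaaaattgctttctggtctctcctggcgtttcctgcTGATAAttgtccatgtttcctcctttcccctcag
Capitals mark the letters as spelled or as their reverse complement, and Gp5 holds 3 matches. Clec1b and Gucy1b1 hold 1 match each, and the promoters of Pf4, Ppbp, Itga2b, Treml1, Alox12, Tubb1 and P2ry1 hold none in this window. A match of letters is a description and not a binding site.

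Among receptors of the platelet surface, Gp5, a subunit of the receptor for von Willebrand factor, measured 6.12, 6.24 and 6.82 in HFD arrays, against 8.33, 8.15 and 9.34 in chow arrays. Itga2b, the integrin subunit that binds fibrinogen, measured 7.37, 7.62 and 8.02 in HFD arrays, against 9.60, 8.91 and 9.95 in chow arrays. Its partner Itgb3 measured 8.40, 8.61 and 8.89 in HFD arrays, against 10.83, 9.58 and 10.69 in chow arrays. In all 3 genes every HFD array lay below every chow array, and chow 02 was the lowest of the chow arrays. The falls were -2.21 ± 0.30 for Gp5 (log2 difference ± SE, adjusted p = 0.000429), -1.82 ± 0.26 for Itga2b (adjusted p = 0.000444) and -1.73 ± 0.27 for Itgb3 (adjusted p = 0.000788). Treml1, a receptor stored in platelet granules, measured 7.21, 7.42 and 8.06 in HFD arrays, against 9.94, 8.94 and 10.20 in chow arrays, a fall of -2.13 ± 0.29 (adjusted p = 0.000429). Clec1b, the podoplanin receptor CLEC-2, fell by 1.79 on the log2 scale, Itga6, a laminin receptor subunit, by 1.50 and P2ry1, a receptor for ADP, by 1.05, with P2ry1 0.73 below chow 01.

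Granule proteins fell with the receptors. Pf4, platelet factor 4, measured 7.36, 7.54 and 8.82 in HFD arrays, against 10.08, 9.77 and 10.63 in chow arrays, a difference of -2.25 ± 0.32 (adjusted p = 0.000429), or 4.76-fold. The neighbouring chemokine gene Ppbp measured 10.40, 10.57 and 11.55 in HFD arrays, against 13.22, 12.01 and 12.92 in chow arrays. HFD array 03 was the highest of its group in both. Vwf, von Willebrand factor, measured 6.96, 6.88 and 7.36 in HFD arrays, against 8.89, 8.17 and 9.39 in chow arrays (log2 -1.75 ± 0.27, adjusted p = 0.000683). Mmrn1, the carrier of factor V in platelets, measured 6.28, 6.14 and 6.50 in HFD arrays, against 9.18, 7.40 and 8.84 in chow arrays. Clu, clusterin, which platelets store in their granules, fell by 1.33. Ppbp was the least certain of these, at -1.88 ± 0.54 (adjusted p = 0.0406).

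The remaining members that fell are a receptor, enzymes and genes of the cytoskeleton and of granule release. F2rl2, the thrombin co-receptor PAR3, measured 7.69, 7.30 and 7.86 in HFD arrays, against 10.75, 8.35 and 9.50 in chow arrays, so its difference was -1.91 against all chow arrays and -3.13 against chow 01. Alox12, the platelet lipoxygenase, measured 6.59, 6.47 and 7.46 in HFD arrays, against 9.50, 7.76 and 9.62 in chow arrays. Tubb1, the tubulin of the platelet rim, measured 7.59, 7.75 and 8.37 in HFD arrays, against 10.30, 8.02 and 10.55 in chow arrays. Tubb1 alone of the 17 overlapped, with HFD array 03 above chow 02. Rab27b, which acts in granule release, fell by 1.66 and Gucy1b1, a subunit of the nitric oxide receptor, by 1.52.

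**Figure D2:**
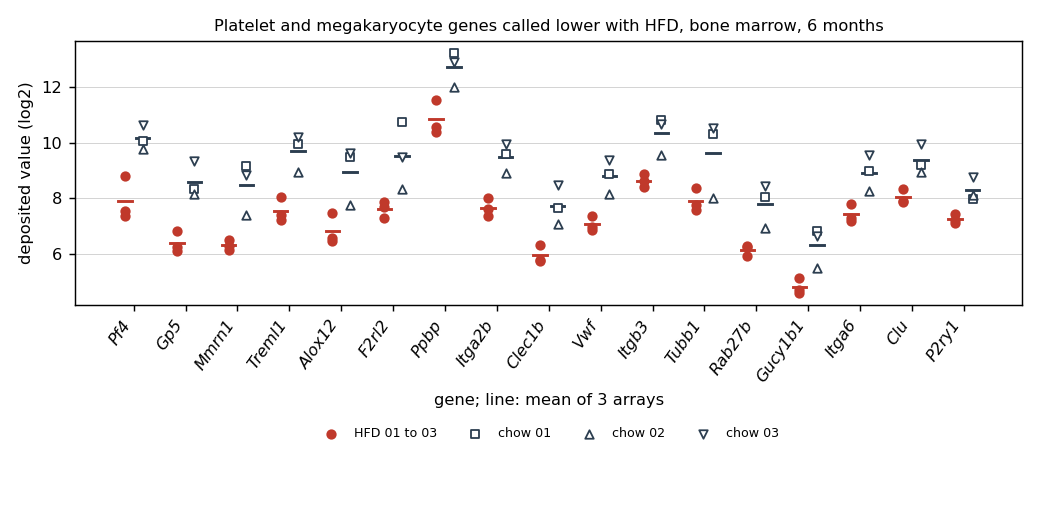
Deposited values (log2) of the 17 platelet genes that fell, for the 3 HFD arrays (filled circles) and for chow 01, 02 and 03 (open square, triangle and inverted triangle); the horizontal line is the mean of the 3 arrays. Every HFD value lies below every chow value of its gene except in Tubb1, and chow 02 is the lowest chow array in most genes.

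Outside the list, several other genes that fell are known from platelets, named here without a list or a count of such genes. Slc6a4, the serotonin transporter that loads platelets, measured 5.86, 6.05 and 6.67 in HFD arrays, against 8.67, 7.16 and 9.01 in chow arrays (log2 -2.09 ± 0.35, adjusted p = 0.00173). Lat, a scaffold of T cell and platelet receptor signaling, measured 7.15, 7.33 and 7.57 in HFD arrays, against 8.99, 8.45 and 9.04 in chow arrays (log2 -1.48 ± 0.21, adjusted p = 0.000429). Trpc6, a cation channel, fell by 1.80, and Cysltr2, a leukotriene receptor, by 1.49 with chow 02 inside the HFD range. A further 7 genes that fell, not all of them particular to platelets, were singled out after their values were seen: the phosphodiesterases Pde3a (log2 -1.70) and Pde5a (log2 -1.62), the inhibitory receptor Mpig6b (log2 -1.67), the metalloproteinase inhibitor Timp3 (log2 -1.72), the retrotransposon-derived gene Peg10 (log2 -1.41, -2.25 against chow 01), the thrombin receptor F2r (log2 -1.11, -0.98 against chow 01) and Slc35d3 (log2 -1.12), which is needed for dense granules in mice. Gp9, a list member and partner of Gp5, measured 8.12, 8.21 and 8.64 in HFD arrays, against 10.86, 8.35 and 9.72 in chow arrays. With chow 02 inside its HFD range, Gp9 did not pass (log2 -1.32 ± 0.41, adjusted p = 0.0594), and Myl9 (log2 -1.24, adjusted p = 0.0903) and Slamf1 (log2 -1.08, adjusted p = 0.0873) had the same order of chow arrays. These 3 did not pass and were also chosen after their values were seen. Against chow 01 the difference was -2.53 for Gp9 and -2.19 for Slamf1.

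A few members of the list that act inside the cell were not lower. Nfe2, which drives platelet formation and is also expressed in red cell precursors, measured 10.44, 10.36 and 10.03 in HFD arrays, against 9.80, 9.29 and 8.95 in chow arrays (log2 0.93 ± 0.18, adjusted p = 0.00532, under 2-fold). Nbeal2, which platelets need to form alpha granules, was higher too (log2 0.76, adjusted p = 0.00599), and Gfi1b measured 9.70 ± 0.33 in HFD arrays and 9.31 ± 0.31 in chow arrays. These 3 were chosen after their values were seen, as list members that did not fall. In erythroid and heme genes, a lineage that shares these factors, 0 of 27 measured members were called, with levels of 10.94, 10.89 and 9.77 in HFD arrays against 10.32, 10.31 and 10.48 in chow arrays. The part of these cells in the platelet result was not tested.

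Of the 33 platelet genes, 20 fell with the set term and 16 without chow 01, against 0.747% and 1.62% of all genes, and 8 fell without chow 03. A fit of the 15 marrow arrays alone called 20 probe sets in all, and Gp5, Itga2b, Pf4, Treml1 and Vwf were the list's members among them. With the 6 arrays of the comparison alone nothing was called at all, the lowest adjusted p being 0.122 and 2653 probe sets having an unadjusted p below 0.05. At 6 months the SD of the list's mean level was 0.51 in marrow chow and 0.17 in marrow HFD arrays. In epididymal arrays, which enter the shared estimate of the spread, it was 0.05 after chow and 0.01 after HFD.

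Genes of patrolling monocytes and of related myeloid receptors rose. In the monocyte list 6 of 19 measured members rose and 0 fell, and among myeloid pattern and Fc receptors 9 of 53 rose and 0 fell, against 0.622% of all genes that rose. The median difference was 0.36 in the monocyte list, 0.46 in the receptor list and -0.03 over all genes, and Cd300e and Treml4 stand on both lists. Ace, angiotensin-converting enzyme, measured 9.79, 9.95 and 10.89 in HFD arrays, against 7.93, 9.26 and 7.44 in chow arrays (log2 2.0 ± 0.35, adjusted p = 0.00212). Cd300e, an activating receptor of monocytes, measured 9.95, 8.80 and 9.76 in HFD arrays, against 7.11, 8.86 and 7.30 in chow arrays (log2 1.75 ± 0.36, adjusted p = 0.00632). Treml4 measured 9.60, 9.87 and 10.92 in HFD arrays, against 7.96, 9.71 and 8.05 in chow arrays (log2 1.56 ± 0.35, adjusted p = 0.0117). Chow 02 was the highest chow array in all 3 genes, and it lay inside the HFD range of Cd300e and Treml4.

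HFD array 03 stood highest for several of these genes. Eno3, an enolase that the monocyte list shares with muscle, measured 8.51, 8.44 and 9.49 in HFD arrays, against 6.98, 8.02 and 6.56 in chow arrays. Cx3cr1, the fractalkine receptor that marks patrolling monocytes, measured 8.54, 8.67 and 9.85 in HFD arrays, against 7.65, 8.39 and 7.53 in chow arrays (log2 1.17 ± 0.31, adjusted p = 0.0304). S1pr5, a sphingosine phosphate receptor that is not on the monocyte list, measured 7.20, 7.55 and 9.10 in HFD arrays, against 6.33, 6.75 and 5.65 in chow arrays (log2 1.71 ± 0.32, adjusted p = 0.00356). In each of them HFD 03 stood above both other HFD arrays by more than these differed from each other. The other called member of the monocyte list was the transcription factor Klf4, described with its family below. Ccr2, the receptor of classical monocytes, chosen after its value was seen, measured 8.82 ± 0.43 in HFD arrays and 8.65 ± 0.55 in chow arrays (adjusted p = 0.825).

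Of the receptors, Clec4a3 measured 9.47, 8.69 and 9.51 in HFD arrays, against 7.28, 7.98 and 7.20 in chow arrays (log2 1.74 ± 0.38, adjusted p = 0.00957). Its relative Clec4a1 rose by 1.48 and Fcgr4, a receptor for immunoglobulin G, by 1.47. Tlr8, an RNA sensor of the endosome, measured 9.26, 8.70 and 9.19 in HFD arrays, against 8.05, 7.45 and 7.04 in chow arrays (log2 1.54 ± 0.42, adjusted p = 0.0316), and its difference was 1.0 against chow 01. Cd180, a relative of the Toll-like receptors, rose by 1.50, Tlr13 by 1.37 and Cd300ld by 1.01, and against chow 01 their differences were 1.25, 0.85 and 1.10. Sh2d1b1, a signaling adaptor on the T and NK cell list that myeloid cells also express, rose by 1.92, the largest rise in that list. Spi1 (PU.1), a regulator needed for myeloid cells to form, measured 11.70, 11.64 and 11.94 in HFD arrays, against 11.44, 10.58 and 9.80 in chow arrays (log2 1.15 ± 0.31, adjusted p = 0.0282), and chow 01 stood 0.32 below the HFD mean. Rgs1, a regulator of G protein signaling, rose by 1.57 (0.96 against chow 01), and Hfe, the hemochromatosis protein of iron control, by 1.03.

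**Figure D3:**
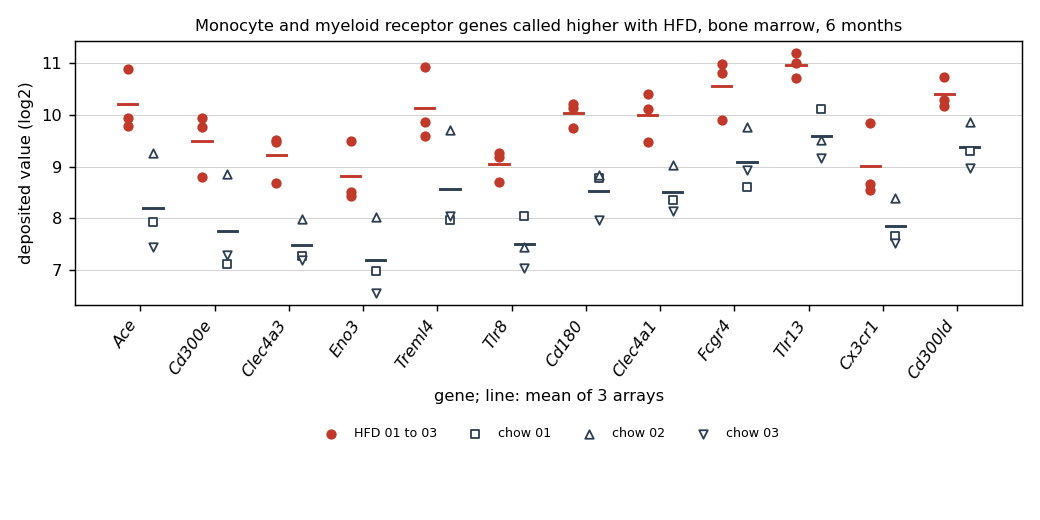
Deposited values (log2) of the 12 monocyte and myeloid receptor genes plotted, all of which rose, for the 3 HFD arrays (filled circles) and for chow 01, 02 and 03 (open square, triangle and inverted triangle); lines are means of 3 arrays. Chow 02 lies inside the HFD range in Cd300e and Treml4, and chow 03 is the lowest chow array in most genes.

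With the set term 3 of the 19 monocyte genes and 2 of the 53 receptors were called, against 0.176% of all genes, and against chow 01 alone 5 and 3 were, against 0.266%. Without chow 03 the numbers were 1 and 0, and without HFD array 03 they were 3 and 4. Macrophage markers, of which 0 of 24 rose and 1 fell, averaged 8.29, 8.04 and 8.70 in HFD arrays, against 8.53, 8.59 and 8.49 in chow arrays. The member that fell was Mrc1, the mannose receptor, by 1.02 and by 0.86 against chow 01. Csf1r, the receptor for macrophage growth factor, measured 10.33 ± 0.28 in HFD arrays and 9.81 ± 0.50 in chow arrays (adjusted p = 0.233, 0.97 against chow 01). Vcam1, an adhesion molecule of marrow macrophages and stroma, measured 9.52 ± 0.34 in HFD arrays and 10.50 ± 0.25 in chow arrays (adjusted p = 0.0292, under 2-fold). Adgre1, a surface marker of macrophages, measured 9.76, 9.54 and 10.14 in HFD arrays, against 9.09, 9.15 and 9.0 in chow arrays (log2 0.73 ± 0.28, adjusted p = 0.129). The complement gene C1qb was 0.68 higher (adjusted p = 0.284, -0.03 against chow 01). C1qa, also a complement gene, went the other way (log2 -0.74, adjusted p = 0.114, -0.20 against chow 01). Csf1r, Vcam1, Adgre1, C1qb and C1qa were chosen after their values were seen.

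Kruppel-like factors and immediate early genes that rose were higher than in chow 01 and chow 03, while chow 02 lay at or near their level. Klf2, Klf4 and Klf6 were the members called of 17 Kruppel-like factors, and 5 of 41 immediate early genes rose (Fosb, Rhob, Egr1, Fos and Junb) while 2 fell, against 0.622% of all genes that rose and 0.592% that fell. The median difference was 0.06 over the Kruppel-like factors and 0.28 over the immediate early genes, beside -0.03 over all genes. Klf2, which keeps endothelial cells and lymphocytes quiescent, measured 10.82, 10.76 and 11.14 in HFD arrays, against 8.32, 11.19 and 8.83 in chow arrays (log2 1.47 ± 0.40, adjusted p = 0.0317). Klf4, a factor of monocyte and epithelial differentiation, measured 9.74, 9.59 and 9.90 in HFD arrays, against 7.64, 9.88 and 7.46 in chow arrays (log2 1.41 ± 0.34, adjusted p = 0.0172). Klf6 measured 11.68, 11.57 and 11.71 in HFD arrays, against 9.64, 11.57 and 10.03 in chow arrays (log2 1.24 ± 0.26, adjusted p = 0.00769). In all 3 factors chow 02 reached the HFD arrays and the other chow arrays lay far below them.

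The immediate early genes had the same order of arrays. Rhob, a small GTPase, measured 11.07, 10.86 and 11.13 in HFD arrays, against 8.70, 10.97 and 9.40 in chow arrays (log2 1.33 ± 0.30, adjusted p = 0.0116). Fos measured 11.64, 11.55 and 11.95 in HFD arrays, against 9.64, 11.80 and 9.97 in chow arrays (log2 1.24 ± 0.32, adjusted p = 0.0247). Fosb measured 12.19, 12.14 and 11.99 in HFD arrays, against 9.19, 12.08 and 9.45 in chow arrays (log2 1.87 ± 0.54, adjusted p = 0.0444). The HFD arrays lay closer together than the chow arrays in all 3 genes. Against chow 01, which shares their array set, Fosb was 2.92 higher, Klf2 2.59, Rhob 2.32, Klf4 2.10, Fos 2.07 and Klf6 2.01. Jun and Dusp1, chosen after their values were seen, stayed under 2-fold at 0.96 (adjusted p = 0.00179) and 0.91 (adjusted p = 0.016). Their differences from chow 01 were 1.16 and 1.42. Tsc22d3, the glucocorticoid-induced leucine zipper, rose by 1.21, and chow 02 was again the highest chow array.

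A pair of immediate early genes went the other way. Gadd45b, a stress-induced growth regulator, measured 9.97, 9.98 and 9.92 in HFD arrays, against 10.74, 10.63 and 11.52 in chow arrays (log2 -1.01 ± 0.18, adjusted p = 0.00207). Nr4a3, an orphan nuclear receptor, measured 7.34, 7.47 and 6.81 in HFD arrays, against 8.65, 7.89 and 8.24 in chow arrays (log2 -1.06 ± 0.24, adjusted p = 0.0115). In both, every HFD array lay below every chow array, and Gadd45b was 0.78 below chow 01. Over the 41 genes the mean level was 9.63, 9.60 and 9.73 in HFD arrays, against 9.03, 9.83 and 9.14 in chow arrays. Without chow 01 no immediate early gene was called higher, against 1.69% of all genes. Klf2 (log2 0.90, adjusted p = 0.108) and Klf6 (log2 0.85) lost the call, although 3 of the 17 Kruppel-like factors were called higher in that fit. With the set term 10 immediate early genes rose and 3 fell, and 3 Kruppel-like factors rose, against 0.176% of all genes that rose and 0.747% that fell. Against chow 01 the median difference was 0.63 over the immediate early genes and 0.01 over the Kruppel-like factors. Without chow 02, 11 immediate early genes were called higher, beside 141 of all 23410 probe sets. Without chow 03 neither list had a member called higher.

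**Figure D4:**
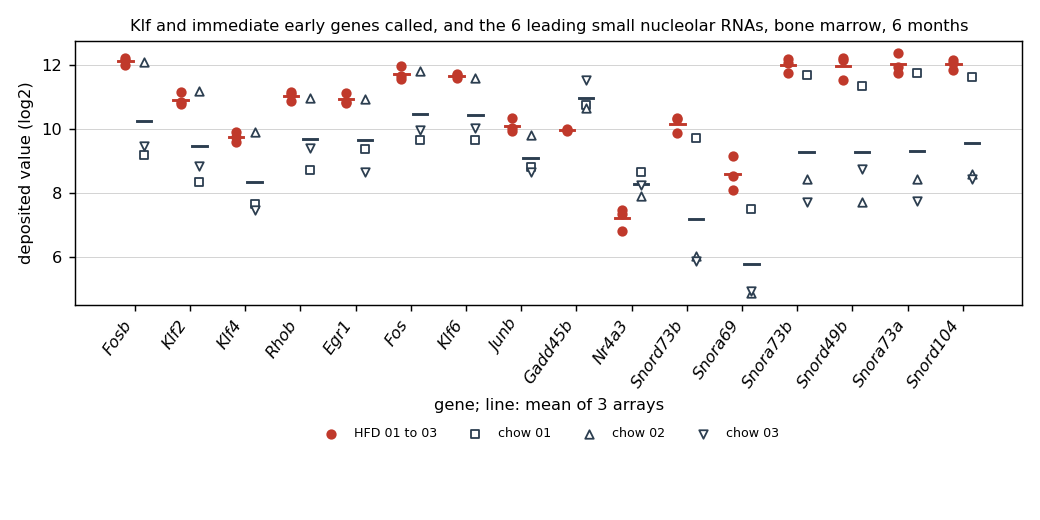
Deposited values (log2) of the called Kruppel-like factors and immediate early genes and of 6 leading small nucleolar RNAs, for the 3 HFD arrays (filled circles) and for chow 01, 02 and 03 (open square, triangle and inverted triangle); lines are means of 3 arrays. In genes from Fosb to Junb chow 02 lies at or near the HFD arrays, and in the small nucleolar RNAs chow 01 is the chow array closest to them.

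Small nucleolar RNAs, which guide the chemical modification and cleavage of ribosomal RNA, rose in 28 of 55 measured members and fell in 0, against 0.622% of all genes that rose, but against chow 01 their median difference was 0.46, beside 1.18 against all chow arrays. Their mean level was 8.21, 8.56 and 8.74 in HFD arrays, against 8.0, 6.83 and 6.81 in chow arrays. Snord118, the U8 RNA, measured 9.17, 10.35 and 11.39 in HFD arrays, against 10.51, 4.88 and 4.82 in chow arrays, so that its difference of 3.56 ± 0.87 (adjusted p = 0.0184) became -0.21 against chow 01. Snord53 measured 9.77, 10.16 and 10.39 in HFD arrays, against 10.04, 5.08 and 5.68 in chow arrays (log2 3.18 ± 0.77, adjusted p = 0.0172, 0.07 against chow 01). Snora7a was 2.72 higher than all chow arrays and 0.39 higher than chow 01. With the set term 5 of the 55 were called and against chow 01 alone 1 was, against 0.176% and 0.266% of all genes. Array set and diet cannot be told apart in the remaining difference from chow 02 and 03. Most of these genes lie in introns of longer genes or have close copies, which the probes may share.

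A smaller number were also called with the set term. Snord52 measured 5.31, 5.96 and 6.41 in HFD arrays, against 4.90, 4.53 and 4.79 in chow arrays (log2 1.15 ± 0.18, adjusted p = 0.000943, 1.01 with the set term, 0.99 against chow 01). Snord87 measured 7.04, 8.10 and 8.66 in HFD arrays, against 6.86, 5.59 and 5.81 in chow arrays (log2 1.85 ± 0.32, adjusted p = 0.00201, 1.49 with the set term, 1.07 against chow 01). Snord42a measured 6.39, 6.58 and 7.45 in HFD arrays, against 5.68, 5.12 and 5.60 in chow arrays (log2 1.34 ± 0.24, adjusted p = 0.00245, 1.38 with the set term). These 3 and Snora69 passed in both fits, with chow 01 as the highest chow array in each. Snord57 rose by 1.66 and was not called with the set term (log2 1.59, adjusted p = 0.0727). n-R5s136, 1 of many near-identical copies of the 5S ribosomal RNA gene, rose by 2.13, and its difference was 1.17 with the set term (adjusted p = 0.271) and 0.68 against chow 01. Mean levels of the list were 6.98 ± 0.06 in 14-month HFD marrow and 6.97 ± 0.17 in 14-month chow marrow, and 7.52 in marrow ob/ob array 03, which is in the set, beside 6.80 and 7.04 in the other ob/ob arrays.

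Some of the largest falls were shared by chow 01. Usp17ld, a deubiquitinase of a family with many similar copies, measured 5.84, 5.82 and 5.95 in HFD arrays, against 5.70, 9.58 and 11.75 in chow arrays. Its fall of -3.14 ± 0.87 (adjusted p = 0.0351) was 0.17 against chow 01. Micos10, which shapes the inner mitochondrial membrane, measured 7.42, 7.46 and 7.80 in HFD arrays, against 7.30, 10.67 and 11.32 in chow arrays, and lay 0.26 above chow 01. Fut11, a fucosyltransferase, measured 4.58, 4.68 and 5.18 in HFD arrays, against 5.42, 8.24 and 8.73 in chow arrays in the probe set that was called (log2 -2.65 ± 0.63, adjusted p = 0.0148), and its difference from chow 01 was -0.60. A second Fut11 probe set, of higher signal, had a difference of -0.10 (adjusted p = 0.724). Cox17, a copper chaperone of cytochrome oxidase, fell by 1.40, Blvra, biliverdin reductase, by 1.48 and Ndufa4, a respiratory chain subunit, by 1.26, and against chow 01 they differed by 0.12, 0.02 and -0.22. Ndufa4 was the only one of 72 respiratory chain subunits that was called. Micos10, Cox17 and Blvra were chosen after their values were seen. Mpp7, a scaffold of cell junctions, fell by 1.81, with chow 03 at 8.89 as the highest array, and its other probe set by 1.03, and it was 0.85 below chow 01.

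Several single genes outside these groups differed from all 3 chow arrays. Ifit1bl2, an interferon-induced gene, measured 7.28, 7.03 and 7.02 in HFD arrays, against 5.65, 5.70 and 5.52 in chow arrays (log2 1.49 ± 0.15, adjusted p = 8.1e-06). S100a6, a calcium-binding protein, measured 11.45, 11.49 and 11.42 in HFD arrays, against 10.14, 10.37 and 10.03 in chow arrays (log2 1.28 ± 0.16, adjusted p = 0.00019). Both were chosen after their values were seen, and in both the gap between the groups was wider than the range of either group. Of 30 interferon-stimulated genes none was called. In 11 of them every HFD array lay above every chow array and in 2 below, beside 1277 and 1721 of all 19938 genes. Fcrl5, an Fc receptor-like protein of B cells, measured 8.93, 6.87 and 6.90 in HFD arrays, against 5.39, 5.40 and 5.36 in chow arrays (log2 2.19 ± 0.37, adjusted p = 0.00179). Adamdec1, a protease of macrophages, measured 7.69, 5.92 and 5.87 in HFD arrays, against 4.42, 4.58 and 4.48 in chow arrays (log2 2.0 ± 0.35, adjusted p = 0.0019). HFD array 01 was the highest in both, and the other HFD arrays lay close together. The B cell list had 0 of 26 members called.

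Il6 and Gzmb were the cytokine and the effector gene that fell most. Interleukin 6 (Il6) measured 6.74, 6.53 and 5.61 in HFD arrays, against 8.69, 8.13 and 8.0 in chow arrays (log2 -1.98 ± 0.36, adjusted p = 0.0026). Gzmb, granzyme B of cytotoxic lymphocytes, measured 5.97, 5.86 and 4.85 in HFD arrays, against 8.23, 6.57 and 7.77 in chow arrays (log2 -1.96 ± 0.28, adjusted p = 0.000433). HFD array 03 was the lowest array for both. Il6 was the only one of 37 cytokines and cytokine receptors that was called. Of 29 measured T and NK cell genes 1 rose, Sh2d1b1, and 2 fell, Gzmb and Lat, against 0.622% and 0.592% of all genes. Ighg3, an immunoglobulin heavy chain gene chosen after its values were seen, measured 5.81 ± 0.25 in HFD arrays and 7.16 ± 0.98 in chow arrays (log2 -1.35 ± 0.32, adjusted p = 0.0159, -2.22 against chow 01). Of 11 genes whose call was lost in no alternative except the fit of 6 arrays, 9 fell (Gp5, Itga2b, Pf4, Treml1, Vwf, Lat, Slc35d3, Il6 and Gzmb) and 2 rose (Ifit1bl2 and S100a6), out of 98 called genes examined in this way.

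Of 22 heat shock and protein folding genes 3 fell and 0 rose, against 0.592% of all genes that fell, and 6 of the 22 had higher values after HFD. None was called lower against chow 01. Hsph1, a relative of Hsp70, measured 7.96, 7.44 and 7.65 in HFD arrays, against 8.48, 8.89 and 9.40 in chow arrays (log2 -1.24 ± 0.25, adjusted p = 0.0058). Hspe1, the mitochondrial co-chaperone, fell by 1.18, by the same amount in a second probe set, and Pdia6, a disulfide isomerase, by 1.30. Chow 01 was the lowest chow array in all 3, and with the set term their differences were -0.68, -0.76 and -0.70 and not called, and against chow 01 they were -0.79, -0.45 and -0.72. Catalase (Cat) measured 11.91, 11.84 and 11.31 in HFD arrays, against 11.51, 10.05 and 10.05 in chow arrays, a rise of 1.15 that was 0.17 against chow 01. Phlda3, a target of p53, rose by 1.01 and lay 0.67 above chow 01.

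Of 37 measured mature adipocyte genes 1 rose and 0 fell, near the 0.622% and 0.592% of all genes, and their median difference was -0.12 against all chow arrays and -0.15 against chow 01. Their mean level was 7.71, 7.72 and 7.80 in HFD arrays, against 7.76, 7.75 and 7.53 in chow arrays. The gene that rose was Retn, resistin, which measured 7.0, 7.37 and 8.0 in HFD arrays, against 6.97, 6.41 and 5.98 in chow arrays (log2 1.00 ± 0.29, adjusted p = 0.0439, 0.48 against chow 01). Cd36, a fatty acid transporter found also on platelets, monocytes and red cell precursors, measured 10.94, 10.91 and 10.46 in HFD arrays, against 9.44, 10.01 and 9.97 in chow arrays. Its difference of 0.97 ± 0.14 had an adjusted p of 0.000492 and stayed under 2-fold, and it was 1.34 against chow 01. Lipe, hormone-sensitive lipase, was 0.68 higher (adjusted p = 0.0106). Pparg, the master regulator of adipogenesis, measured 9.37, 8.74 and 9.62 in HFD arrays, against 8.58, 8.30 and 7.95 in chow arrays (log2 0.96 ± 0.29, adjusted p = 0.0544, 0.66 against chow 01). These 3 were chosen after their values were seen. Lep measured 4.44 ± 0.64 in HFD arrays and 5.25 ± 0.63 in chow arrays (adjusted p = 0.259, -0.12 against chow 01). Among lipid droplet and lipolysis genes the single call was a fall of 1.02 in Ptger3, a prostaglandin E2 receptor (0.77 below chow 01), and among adipogenic and mesenchymal regulators a fall of 1.12 in Grem1, an inhibitor of bone morphogenetic proteins.

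Lists of fatty acid oxidation (27 genes), cholesterol synthesis and uptake (23), insulin signaling and glucose uptake (30), cytosolic ribosomal proteins (44) and proliferation (39) had no member called. Their median differences lay between -0.15 and -0.01. Neutrophil genes had no member called either, with medians of -0.09 over 11 primary granule and progenitor genes, 0.14 over 15 secondary granule genes and 0.40 over 18 genes of mature neutrophils. The level of proliferation genes was 9.84, 9.68 and 9.02 in HFD arrays, against 9.65, 9.36 and 9.57 in chow arrays, with HFD array 03 as the lowest. The same array was lowest in erythroid and B cell genes, with B cell genes at 7.58 beside 8.27 and 8.49 in the other HFD arrays. The part of these cells in the results was not tested.

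**Figure D5:**
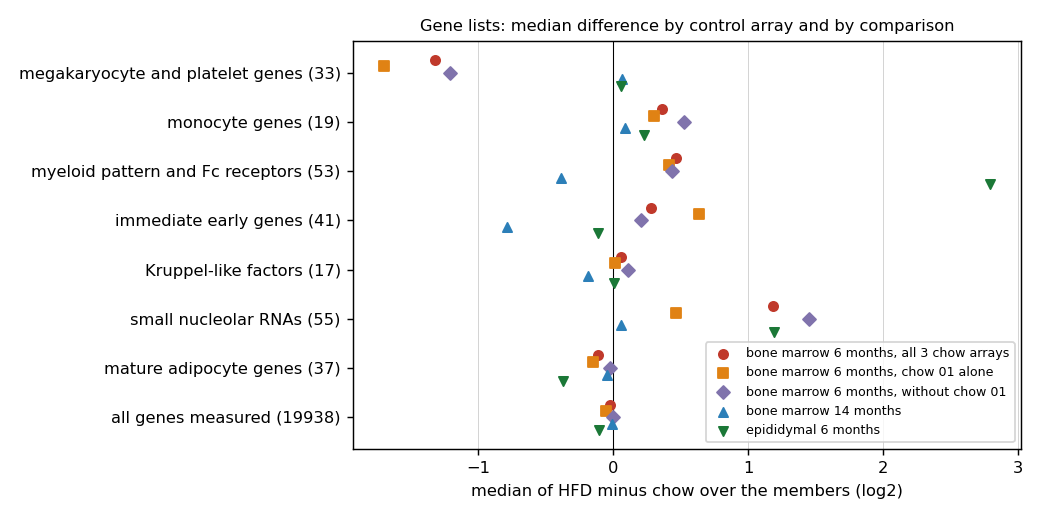
Median over the measured members of 7 gene lists and over all 19938 genes of HFD minus chow (log2), with the number of genes in brackets, for 6-month marrow against all 3 chow arrays (circles), chow 01 (squares) and chow 02 and 03 (diamonds), for 14-month marrow (triangles) and for 6-month epididymal cells (inverted triangles). Platelet genes lie at -1.32, -1.70 and -1.21 in 6-month marrow and at 0.06 in both other comparisons, and small nucleolar RNAs fall to 0.46 against chow 01.

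Whether the response differed with age was tested as an interaction, the difference between HFD and chow at 6 months minus that at 14 months. It was called in 661 probe sets (2.82%), 407 more positive at 6 months (1.74%) and 254 more negative (1.09%), in groups that share no arrays. Of the 163 rises 84 were called in it with the same sign, and of the 150 falls 84. At 14 months itself 4 of the rises and 5 of the falls were called in the same direction, and 8 and 1 in the opposite one, where 0.162% of all probe sets rose and 0.581% fell. Platelet genes differed between the ages, with 15 of 33 more negative at 6 months against 1.06% of all genes. Gp5 measured 7.94, 7.76 and 8.20 in 14-month HFD arrays, against 8.79, 7.52 and 7.29 in 14-month chow arrays (log2 0.10 ± 0.30), and its interaction was -2.31 (adjusted p = 0.00215). Pf4 had a difference of 0.03 at 14 months and Itga2b of -0.03.

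In the interaction, 21 of 41 immediate early genes were more positive at 6 months, against 1.76% of all genes, and 1 more negative. At 6 months 5 of the 41 rose and 2 fell, and at 14 months 0 rose and 14 fell. Fos measured 9.64, 9.69 and 9.55 in 14-month HFD arrays, against 10.87, 10.86 and 10.72 in 14-month chow arrays (log2 -1.19 ± 0.32, adjusted p = 0.0394). Egr1 measured 7.84, 7.83 and 8.34 in 14-month HFD arrays, against 9.94, 9.60 and 10.07 in 14-month chow arrays (log2 -1.87 ± 0.35, adjusted p = 0.0028). Jun fell by 1.64 at 14 months (adjusted p = 1.01e-06). For Fos the 14-month HFD arrays lay below all 14-month chow arrays and close to 6-month chow 01. The interactions were 2.43 for Fos (adjusted p = 0.00223), 3.14 for Egr1 (adjusted p = 0.000611) and 2.60 for Jun (adjusted p = 2.08e-07). No array of either 14-month group belongs to the set of 8, whereas 4 of the 6 arrays at 6 months do. Fcrl5 and Adamdec1 rose at both ages, by 1.86 each at 14 months (adjusted p = 0.00466 and 0.00233), and Cd300e by 1.47 (adjusted p = 0.0211). Ifit1bl2 was 0.85 lower at 14 months (adjusted p = 0.00178), and its interaction was 2.34.

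Epididymal cells of the same age gave the comparison between depots, and by the study's description both cell types came from the same mice. The interaction of diet with depot, the marrow difference minus the epididymal one, was called in 2502 probe sets (10.7%), 749 more positive in marrow (3.2%) and 1753 more negative (7.49%). Of the marrow rises 107 were also called higher in epididymal cells and 1 lower, and of the marrow falls 72 were lower and 8 higher there, beside 9.41% of all probe sets that rose and 5.21% that fell in that depot. All 3 epididymal HFD arrays and none of the epididymal chow arrays belong to the set of 8, so diet and set cannot be told apart in that depot. Of the 53 myeloid receptors 34 were more negative in marrow and 2 more positive, against 7.41% and 3.24% of all genes, and of the 19 monocyte genes 3 and 3. In epididymal cells Spi1 measured 11.60, 11.44 and 11.47 in HFD arrays, against 6.53, 6.59 and 5.68 in chow arrays. Its interaction was -4.08 (adjusted p = 7.46e-08). Eno3, S1pr5 and Hfe rose in marrow and had differences of -0.31, -0.43 and -1.27 in epididymal cells, with interactions of 1.93 (adjusted p = 0.00312), 2.14 (adjusted p = 0.000974) and 2.29 (adjusted p = 6.65e-05). Il6 fell in marrow and measured 10.12, 9.15 and 9.37 in epididymal HFD arrays, against 8.32, 8.28 and 8.17 in epididymal chow arrays, a difference of 1.29 (adjusted p = 0.00529) and an interaction of -3.27 (adjusted p = 2.63e-05). Pf4 was 1.22 higher in epididymal cells after HFD (adjusted p = 0.00287), while the median over platelet genes was 0.06 there.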

How the data were processed

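The deposited series table holds log2 values of 35556 probe sets on 36 arrays, 3 pooled RNA preparations in each of 12 groups. Per the study's methods the authors used GCRMA with quantile normalization in Partek, and the labels name both RMA and GCRMA. Background correction can alter differences of dim probe sets, and its effect was not tested here. Values ran from 1.93 to 14.63 and array medians from 5.58 to 5.98, and counting depth does not apply. Platform annotation gave 1 symbol to 21789 probe sets, several to 1621 and none to 12146, and 21698 of those with 1 symbol matched RefSeq by gene number.

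Group means were fitted with limma 3.58.1 (R 4.3.3) to 30 arrays in 10 groups, without the 18-month groups, with 20 residual degrees of freedom. Contrasts were tested with the moderated variance and adjusted over the 23410 named probe sets. The procedure was tested on simulated data. Gene lists use 1 probe set per gene, the one with the highest mean. Measured members were found for 41 lists, and a further list, replication-dependent histones, had none. Named genes were the 15 largest non-overlapping rises and falls with 1 symbol, called or defining list members, the 8 largest rises and falls against chow 01 among those also called with the set term, and the 6 largest of each interaction in each direction. Members and lists were chosen with earlier results of these data known. Alternatives changed the samples fitted, the normalization, filter, variance model, probe sets, threshold, pairing and arrays left out. Tables and figures used Python 3.11.15, pandas 2.3.3 and matplotlib 3.10.9. A listing of the diet was not used here.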

Additional observations from a re-analysis of the deposited data

Results flagged for a closer look

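The diet difference in bone marrow at 6 months differed from that at 14 months in 661 probe sets and from that in epididymal cells in 2502, by tests of the differences themselves in limma. Among the genes with the largest difference between ages, those more positive at 6 months were Snord118 at 4.16 (adjusted p = 0.0464), Rnu3a at 3.64 (adjusted p = 0.00134), n-R5s136 at 3.33 (adjusted p = 0.00378), Fosb at 3.19 (adjusted p = 0.0149) and Egr1 at 3.14 (adjusted p = 0.000611). More negative at 6 months were Usp17ld at -4.53 (adjusted p = 0.031), Fut11 at -3.25 (adjusted p = 0.031), Alox12 at -2.40 (adjusted p = 0.0135), Mmrn1 at -2.39 (adjusted p = 0.0496), Mpp7 at -2.36 (adjusted p = 0.0106) and Gp5 at -2.31 (adjusted p = 0.00215). At 6 months the differences from chow 01 alone were -0.21 for Snord118, 0.17 for Usp17ld, -0.60 for Fut11, 1.08 for Rnu3a, 0.68 for n-R5s136 and -0.85 for Mpp7.

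Between depots, the genes more positive in marrow were Fosb at 2.45 (adjusted p = 0.0236), Hfe at 2.29 (adjusted p = 6.65e-05), Adamdec1 at 2.15 (adjusted p = 0.00204), S1pr5 at 2.14 (adjusted p = 0.000974), Fcrl5 at 2.0 (adjusted p = 0.00735) and Eno3 at 1.93 (adjusted p = 0.00312). More negative in marrow were Tlr13 at -4.39 (adjusted p = 7.52e-07), Spi1 at -4.08 (adjusted p = 7.46e-08), Rgs1 at -3.88 (adjusted p = 3.71e-05), Cd300ld at -3.73 (adjusted p = 1.24e-07), Pf4 at -3.48 (adjusted p = 1.77e-06) and Il6 at -3.27 (adjusted p = 2.63e-05). Diet and array set cannot be told apart in the epididymal arm of these differences.

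Outside the named genes, 91 of the 12146 probe sets without a symbol were called after HFD at 6 months, 74 higher and 17 lower. Of these, 37 also differed from chow 01 by at least 1 log2 in the same direction.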

How the results depend on the processing

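The 313 calls at 6 months became 200 with the set term (41 rises and 159 falls), 125 against chow 01 alone, 20 in the 15 marrow arrays, 205 without moderated variance, 739 with array weights, 1116 without a fold minimum, 293 with a replicate block and 0 in the 6 arrays alone, where 2653 had an unadjusted p below 0.05. With 1 array left out they ran from 57 to 877. The 661 calls between ages became 368 against chow 01 alone, 207 in the marrow arrays, 1329 with array weights, 1248 without a fold minimum and 624 with the replicate block, and 298 to 1518 with 1 array left out, the ends being without chow 03 and chow 01 at 6 months. The 2502 calls between depots became 4366 without a fold minimum and 2492 with the block, and 2241 to 2699 with 1 array left out. Array numbers did not pair marrow HFD with marrow chow arrays, since deviations of arrays with the same number correlated at -0.199, -0.099 and -0.329. Between depots, whose cells came from the same mice, the same numbers correlated at 0.12, 0.068 and -0.157 in HFD arrays and -0.073, 0.029 and -0.135 in chow arrays, and the block across depots, added after seeing the data, gave 2520 calls. Against chow 01 alone the sign turned in Snord118 (-0.21), Usp17ld (0.17), Micos10 (0.26), Cox17 (0.12) and Blvra (0.02), and with the set term in Micos10 (0.08). The cause was not tested. Over 111 genes and all alternatives, 1642 of 2203 values kept the side of the threshold, and called genes among them kept direction too. Another 524 lost the call, 31 gained one and 6 turned sign. A change of sign in a gene called in neither fit was counted as kept. Without chow 03, 69 of 98 called genes lost the call, and 14 did without chow 01. In the 15 marrow arrays alone 86 of the 98 lost it. That fit called 5 platelet genes lower and 1 small nucleolar RNA higher. It called no monocyte gene, myeloid receptor, Kruppel-like factor or immediate early gene higher. Precision is limited by 3 pools a group.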
